A study of Oryza sativa Indica Group with 2 samples.

Results

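Tiller angle and leaf angle set how upright a rice plant stands, and 6 genes known to govern these angles were described here, out of 35677 genes in the deposited table. They were found by their RAP identifiers: LAZY1 (OS11G0490600), LPA1 (OS03G0237250), TAC1 (OS09G0529300), ILI1 (OS04G0641700), BU1 (OS06G0226500) and LIC (OS06G0704300). All 6 have a row in the table, and 5 of them were expressed, which here means that FPKM averaged over the libraries was 1 or more. FPKM is the number of sequenced fragments scaled to transcript length and library size. The table itself names LPA1 (in its best protein database hit), ILI1 and BU1, lists LIC as a zinc finger CCCH domain-containing protein, and gives no name for the rows of LAZY1 and TAC1, which carry the symbols of the member list.

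RNA came from seedlings of Indica rice at the tillering stage, grown in Wuhan in summer. The wild type (WT, 1 library) was set against GRF7OE (1 library), the transgenic line GRF7OE-1, which overexpresses OsGRF7, a growth-regulating factor and a target of a miR396-family microRNA. The series places the comparison in the setting of plant architecture. GRF7OE is represented by 1 line, and neither the promoter driving the transgene nor the number of plants pooled was given in the sources used here. The comparison therefore rests on a single library a side, without replicates, and the conditions themselves could not be tested.

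About 17021467 reads were assigned to genes in GRF7OE and 16824988 in WT. OsGRF7 itself was at 70.7 FPKM in the transgenic library against 5.10, so the library labelled as the overexpression line held more of its transcript. The leaf genes for the Rubisco small subunit and for chlorophyll a-b binding protein 1 were among the most abundant, at 3043 and 4273 FPKM in GRF7OE against 2354 and 3178 in WT. The meristem homeobox gene OSH1 was present at 4.74 against 5.90 FPKM. A seed storage glutelin gene was near the lower limit, with 10 and 17 reads. The root marker OS02G0662000, a proline-rich protein gene, was lower, at 5.19 against 10.4 FPKM, a ratio of 2.01-fold [1.41 to 2.89]. Square brackets after a fold or a level hold its 95% exact counting interval, which covers counting error and not differences between plants.

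A grass shoot that is tilted senses gravity by the settling of starch grains, moves auxin to its lower side and bends upward as that side grows more. Tillers leave the main stem at an angle that this response and opposing spreading factors set. The angle of a leaf blade is set instead at the lamina joint, the hinge between blade and sheath, which bends when cells on its upper face elongate under the influence of brassinosteroids and auxin. LAZY1 and LPA1 act in shoot gravity responses and keep tillers upright, whereas TAC1 opens the tiller angle. ILI1 and BU1 are small helix-loop-helix proteins that increase leaf inclination, and LIC restrains brassinosteroid responses.

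LAZY1 and LPA1, the gravity response genes, were lower in GRF7OE, and the remaining 4 genes, among them LIC, which also restrains angle, did not differ between the libraries beyond counting error. LAZY1 was 2.78-fold lower and LPA1 3.02-fold lower. TAC1, ILI1, BU1 and LIC lay between 1.57-fold lower and 1.30-fold higher. Of the 6 genes 2 had a counting interval wholly below equal levels and 0 wholly above, where 25.3% and 24.4% of the 23397 expressed genes did. Counts past 2-fold use the scale log2((GRF7OE FPKM + 1) / (WT FPKM + 1)). On it 1.25% of expressed genes were 2-fold lower or beyond in GRF7OE, 3.24% were that much higher, and 4.49% differed by this much either way. Of the 5 expressed angle genes 2 were lower by 2-fold and 0 were higher. Their median log2 ratio was -0.49, against -0.01 over all expressed genes. That median is the value of ILI1 alone, a gene within counting error, and so shows no shift of the group. The choice of these genes was made with earlier results of these data known.

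**Figure D1:**
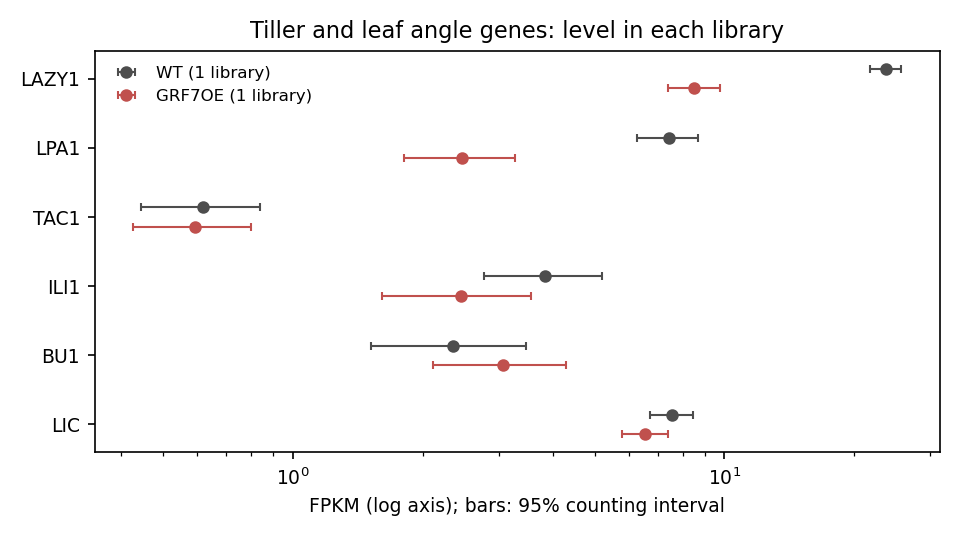
FPKM of the 6 angle genes in WT (grey) and GRF7OE (red), 1 library each, on a log axis with bars for the 95% counting interval. The intervals of LAZY1 and LPA1 do not overlap between the libraries, and those of the other 4 genes do.

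LAZY1, a protein of 400 residues on chromosome 11, steers auxin during the shoot gravity response, and rice plants that lack it spread their tillers wide. It was at 23.7 FPKM [21.8 to 25.7] in WT and 8.50 FPKM [7.38 to 9.75] in GRF7OE. These levels rested on about 592 and 206 reads, and the intervals were far apart. GRF7OE minus WT came to -15.2 FPKM, the 2.78-fold ratio had an interval of 2.37 to 3.28, and the log2 ratio was -1.38. Of the 23397 genes 98 had a lower log2 ratio, or 0.419%. Among the 8878 genes whose mean level was within 2-fold of that of LAZY1, 0.856% were 2-fold lower or beyond.

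LPA1 encodes a zinc finger protein of 438 residues on chromosome 3. Its closest SwissProt entry in the table is Arabidopsis SHOOT GRAVITROPISM 5, an INDETERMINATE DOMAIN protein that acts in gravity sensing. The similarity is 91% within the best aligned segment, which need not span the whole protein. Loss of LPA1 opens both tiller and leaf angle in rice. It was at 7.42 FPKM [6.28 to 8.70] in WT and 2.46 FPKM [1.81 to 3.27] in GRF7OE, from about 150 and 47 reads. The 3.02-fold ratio had an interval of 2.16 to 4.28, wider than that of LAZY1 because fewer reads stood behind it. The log2 ratio was -1.28, with 131 genes (0.560%) lower. Among 7889 genes within 2-fold of its mean level, 118 were 2-fold lower or beyond.

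The p-values of the authors' deposited table compare a pair of libraries rather than conditions, and a call needs an FDR of at most 0.05 with an absolute log2 ratio of at least 1. Of the 25818 genes the table marks as testable, 1.63% carry that call. LAZY1 is the 1 angle gene with it, at an FDR of 0.00463 in the authors' deposited table. LPA1 has an FDR of 0.0869 there, which misses the threshold although its ratio is the larger. For TAC1, ILI1, BU1 and LIC the authors' deposited table gives p-values of 0.955, 0.301, 0.559 and 0.57.

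LAZY1 and LPA1 differed by a similar factor, so their relative levels were close in both libraries. LAZY1 stood at 3.19 times LPA1 in WT and 3.46 times in GRF7OE. In RNA from seedling tissue, fewer cells that express a gene and less of its RNA per cell cannot be told apart. The root marker above was lower in the same library by 2.01-fold, while the leaf genes were higher by 1.29-fold and 1.34-fold and OSH1 was within counting error. The part of tissue proportions in the ratios of LAZY1 and LPA1 was not tested.

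**Figure D2:**
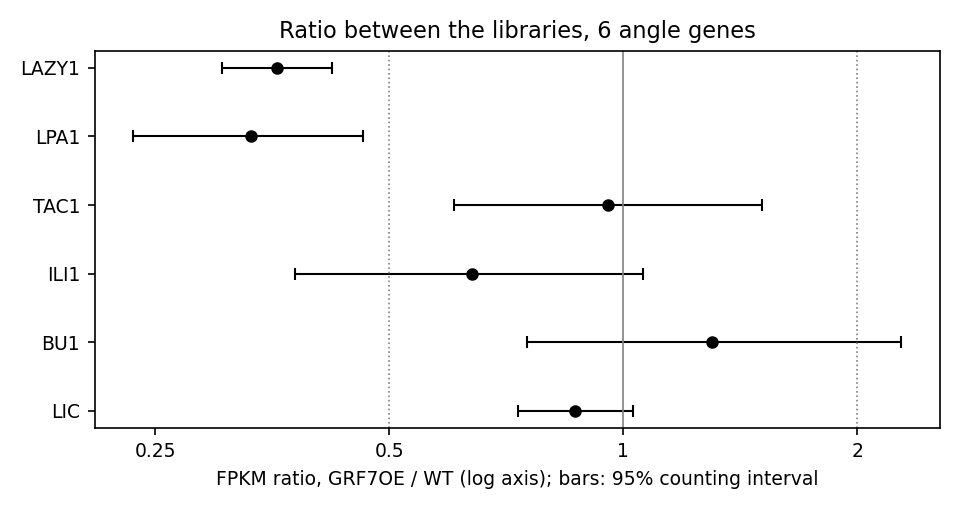
FPKM ratio of GRF7OE to WT for the 6 angle genes on a log axis, with bars for the 95% counting interval, a solid line at no difference and dotted lines at 2-fold. LAZY1 and LPA1 lie left of the 2-fold line with their whole intervals, and the intervals of the other 4 genes cross the solid line.

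TAC1, a protein of 306 residues on chromosome 9, belongs to the same plant protein family as LAZY1 and acts in the opposite sense, since plants with less TAC1 are more compact. It was at 0.619 FPKM [0.444 to 0.840] in WT and 0.592 FPKM [0.426 to 0.800] in GRF7OE, the lowest level of the 6 genes in both libraries. Its ratio was 1.05-fold lower [0.664 to 1.65]. On the log2 scale it stood at -0.02, and at 0.05 from the normalised count columns. A 2-fold difference in either direction lies outside that interval. TAC1 fell short of the minimum for expressed genes and so takes no part in counts past 2-fold.

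The low FPKM of TAC1 did not come from an absence of reads. About 42 reads were assigned to it in GRF7OE and 41 in WT, close to the 42 of ILI1 in WT. One FPKM of TAC1 stood for 68.5 reads, one of LAZY1 for 24.8 and one of BU1 for 10.7, because FPKM divides by the length of the transcript model. The rank of TAC1 among the angle genes depends on that length. Its ratio between libraries was close with and without that division. WT over GRF7OE was 1.05 from FPKM and 0.967 from the normalised count columns. On the FPKM scale, LAZY1 exceeded TAC1 by 38.2 times in WT and by 14.4 times in GRF7OE.

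ILI1 and BU1, the leaf angle promoters, had ratios of opposite sign, each within counting error. ILI1, with 104 residues and a gene on chromosome 4, is known to bind and counteract the inhibitor IBH1. It was at 3.84 FPKM [2.77 to 5.19] in WT and 2.45 FPKM [1.61 to 3.56] in GRF7OE, on about 42 and 27 reads. The ratio of 1.57-fold lower had an interval from 0.944 to 2.64, so that equal levels and a 2-fold lower level both lie inside it. On the log2 scale ILI1 stood at -0.49, and 7.37% of all genes in the set were lower.

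BU1, of 87 residues and on chromosome 6, is induced by brassinosteroid and acts downstream of its receptor. It was at 2.35 FPKM [1.52 to 3.47] in WT and 3.06 FPKM [2.11 to 4.30] in GRF7OE. About 25 and 33 reads gave a ratio of 1.30-fold higher [0.751 to 2.28] and a log2 ratio of 0.28. ILI1 stood above BU1 in WT, at 1.63 times its FPKM, and below it in GRF7OE, at 0.800 times. The intervals of these genes overlap in each library, so that order was not resolved in either. Added together, ILI1 and BU1 held 6.19 FPKM in WT and 5.51 in GRF7OE.

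LIC, a CCCH zinc finger protein of 390 residues and also on chromosome 6, lowers leaf and tiller angle by restraining brassinosteroid signalling. It was at 7.55 FPKM [6.72 to 8.45] in WT and 6.55 FPKM [5.79 to 7.39] in GRF7OE. With about 300 and 266 reads it had the narrowest interval of the 4 genes within counting error, at 1.15-fold lower [0.974 to 1.36]. A 2-fold difference lies well outside that interval.

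The order of levels changed below the top. In WT, LAZY1 came first, LIC and LPA1 followed with overlapping intervals, then ILI1 and BU1, also overlapping, and TAC1 came last. In GRF7OE, LAZY1 stayed first but its interval met that of LIC, at 7.38 for its lower bound against 7.39. LPA1 had moved down to the level of BU1 and ILI1, whose intervals all overlapped, and TAC1 was again last. Summed over the 6 genes, the FPKM was 45.4 in WT and 23.6 in GRF7OE, and LAZY1 made up the largest share of the difference among the 6.

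**Figure D3:**
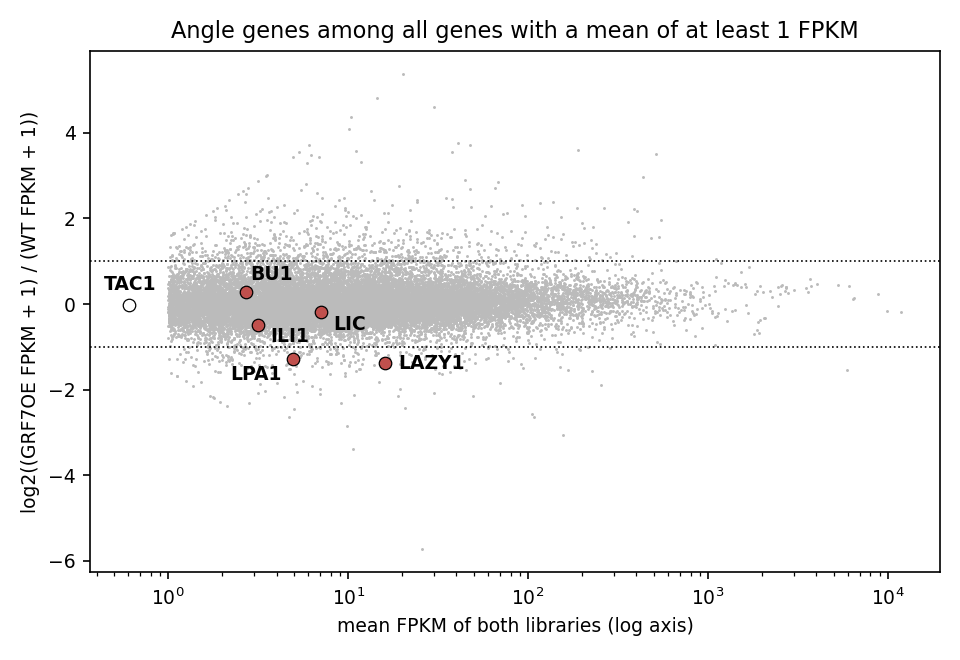
Log2 ratio of GRF7OE to WT, with a pseudocount of 1 FPKM, against the mean FPKM on a log axis, for 23397 genes (grey) and the 6 angle genes (circles, open for TAC1, which was under the minimum). Dotted lines mark 2-fold, and LAZY1 and LPA1 lie below the lower line while the other 4 lie between the lines.

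The chromosomal neighbours of the angle genes were also read. The 5 loci on each side of every angle gene, by order of RAP identifier, gave 60 loci, of which 43 were expressed. Among these 43, 0 were 2-fold apart in either direction, where 4.49% of all expressed genes were, so that so few loci are not set apart by it. Their log2 ratios ran from -0.63 to 0.78. Around LAZY1 the 5 expressed neighbours lay between -0.29 and 0.49, and around LPA1 the 8 expressed neighbours lay between -0.63 and 0.64.

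The likeness of other genes to LAZY1 and LPA1 was measured as the distance on log2(FPKM + 1) over the 2 libraries, which is a thin basis. Of the 2 nearest genes to each, the table names 1, OS04G0320700, close to LAZY1 at a distance of 0.16. It is described as a UDP-glycosyltransferase, an enzyme that attaches sugars to small molecules, and was at 9.57 FPKM against 24.2.

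The wider family of ILI1 and BU1 was not uniform. The table describes 8 genes as ILI transcription factors, ILI1 and BU1 (ILI4) among them, and 6 were expressed. Of these 6 genes 2 were higher by more than 2-fold and 1 was lower by more than 2-fold, with a median log2 ratio of 0.44. Over all expressed genes 3.24% were that much higher and 1.25% that much lower, with a median of -0.01. ILI3 (OS03G0171700) was at 10.2 FPKM against 3.19 in WT, 3.20-fold higher [2.26 to 4.60]. ILI7 (OS10G0404300) was at 2.44 against 0.312 FPKM, 7.82-fold higher [1.82 to 70.5], on 15 reads against 2. OS10G0403800, whose best match is ILI3 at 86% similarity within the best aligned segment, went the other way. It was at 2.20 against 5.52 FPKM, 2.51-fold lower [1.57 to 4.12].

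ILI5 (OS02G0747900) was 1.65-fold higher [1.09 to 2.52], and ILI2 and ILI6 had at most 2 reads in a library. None of the 8 carries the significance call of the authors' deposited table, where ILI3 has an FDR of 0.0626. These genes encode short, related proteins, and the assignment of reads shared between close copies was not given in the sources used here. Summed over the 8 genes, the FPKM was 27.3 in GRF7OE and 19.7 in WT. ILI3 made up 37.3% of that sum in GRF7OE and 16.2% in WT. IBH1, the inhibitor that ILI1 binds, was at 14.7 against 16.1 FPKM, or 1.10-fold lower [0.921 to 1.30].

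**Figure D4:**
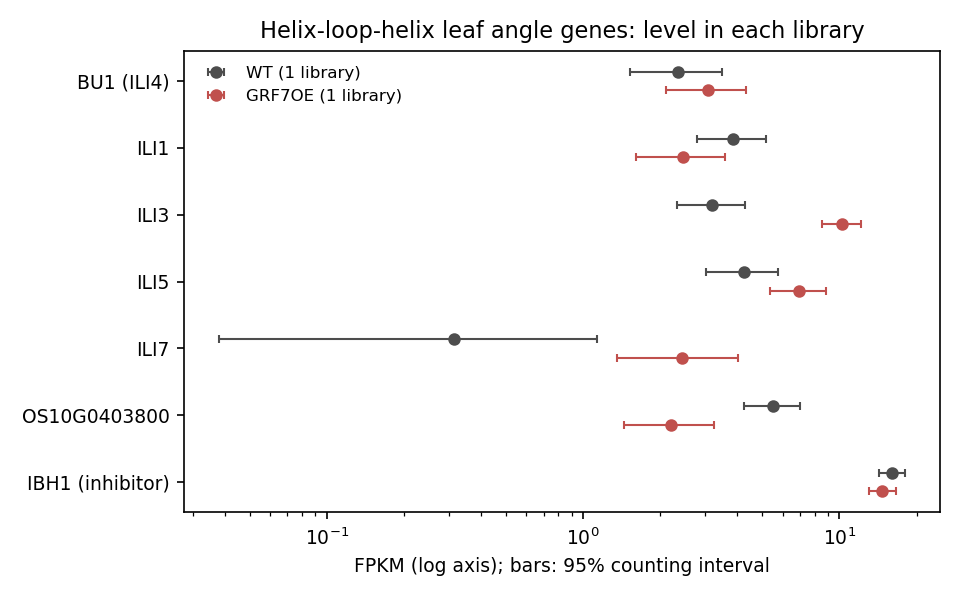
FPKM of the 6 expressed ILI genes, and of the inhibitor IBH1, in WT (grey) and GRF7OE (red), 1 library each, on a log axis with bars for the 95% counting interval. ILI3 and ILI7 are higher and OS10G0403800 lower in GRF7OE with intervals apart, while ILI1, BU1, ILI5 and IBH1 overlap between the libraries. For ILI5 the interval of the ratio, 1.09 to 2.52, nevertheless lies above equal levels. ILI7 rests on 15 reads in GRF7OE and 2 in WT.

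Other genes of the angle pathways, from lists that hold 57 genes besides the angle genes, differed both ways. Of the 41 that were expressed, 2 were past 2-fold on the lower side (4.88%, against 1.25% of expressed genes) and 3 on the higher side (7.32%, against 3.24%). These shares rest on few genes, and the lists were chosen with earlier results of these data known. Among the 3 higher genes is ILI7, described above, with 15 reads in GRF7OE against 2 in WT. The median log2 ratio of the 41 was -0.02, close to that of all genes. In the list of shoot gravity and tiller angle genes, 2 of 5 were higher and 0 lower by 2-fold. SPL14, which limits tiller number, was 2.52-fold higher [2.19 to 2.92], and the homeobox gene HOX28 was at 22.4 against 10.0 FPKM, 2.24-fold higher [1.83 to 2.76]. The authors' deposited table gives SPL14 an FDR of 0.00938 and calls it, and gives HOX28 an FDR of 0.168 without a call. HOX1, a gene of the same homeobox class, was within counting error at 1.08-fold lower [0.987 to 1.19]. WOX11, a homeobox gene of the same shoot gravity and tiller angle list, is also known for crown root growth. It was under the minimum for expressed genes and is named after its values were seen. Its reads numbered about 3 in GRF7OE against 19, 6.21-fold lower [1.83 to 32.8].

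Among auxin efflux carriers 6 of 12 were expressed. Where 1.25% of all expressed genes were past 2-fold on the lower side, 1 of the 6 carriers was. This was OS06G0232300, named in the table as auxin efflux carrier component 1c, at 1.49 against 4.07 FPKM, 2.73-fold lower on about 57 and 160 reads, without a call in the authors' deposited table at an FDR of 0.365. OS08G0529000, another carrier, was 2.50-fold lower [1.55 to 4.15] as a plain ratio, with a log2 ratio of -0.84. OS01G0919800 and OS01G0643300 had log2 ratios of 0.57 and 0.31.

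In the list of lamina joint and auxin genes for leaf angle, 1 of 7 was past 2-fold on the lower side and 0 on the higher, with a median of -0.29. The shares over all expressed genes were 1.25% lower and 3.24% higher. GH3.1 (OS01G0785400), which joins auxin to amino acids and opens the leaf angle when overexpressed, was at 0.804 against 3.57 FPKM, 4.44-fold lower [2.87 to 7.15]. The authors' deposited table gives GH3.1 an FDR of 0.034 and calls it significant. ARF19 and SPY had log2 ratios of -0.37 and -0.35. LG1, needed to form the lamina joint, was at 0.35.

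The brassinosteroid signalling genes around BU1 and LIC held 13 genes, of which 0 were 2-fold apart, where 4.49% of all expressed genes were. With that share, 0 among so few genes does not set the list apart. The largest ratios were those of OS06G0127800, described as a GRAS protein, at 0.82, the cyclin gene OS10G0563900 at 0.63, the receptor-like kinase gene OS04G0576900 at 0.43 and the G protein alpha subunit gene OS05G0333200 at 0.39. BZR1, the transcription factor at the end of the pathway, was at 1.06-fold higher [0.958 to 1.17]. For brassinosteroid synthesis 0 of 3 genes were 2-fold apart, with D11 at -0.50, OS05G0200400 at -0.27 and BRD1 at 0.23.

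Relatives of LPA1 had smaller ratios. Of 3 expressed genes listed for the INDETERMINATE DOMAIN family, 0 were 2-fold apart, where 4.49% of all expressed genes were. OS08G0467100, which the table also matches to SHOOT GRAVITROPISM 5, was 1.49-fold lower [1.02 to 2.21], an interval that overlaps that of LPA1. OS04G0566400, described as a MAGPIE-type zinc finger protein, had a log2 ratio of 0.17, and OS09G0449400, which the table does not name, was 1.29-fold lower [1.11 to 1.51]. The median log2 ratio of the 3 was -0.34. The helix-loop-helix list, beside the ILI genes, held APG, an antagonist of ILI-type proteins in grain length, at 1.34-fold lower [1.14 to 1.57].

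**Figure D5:**
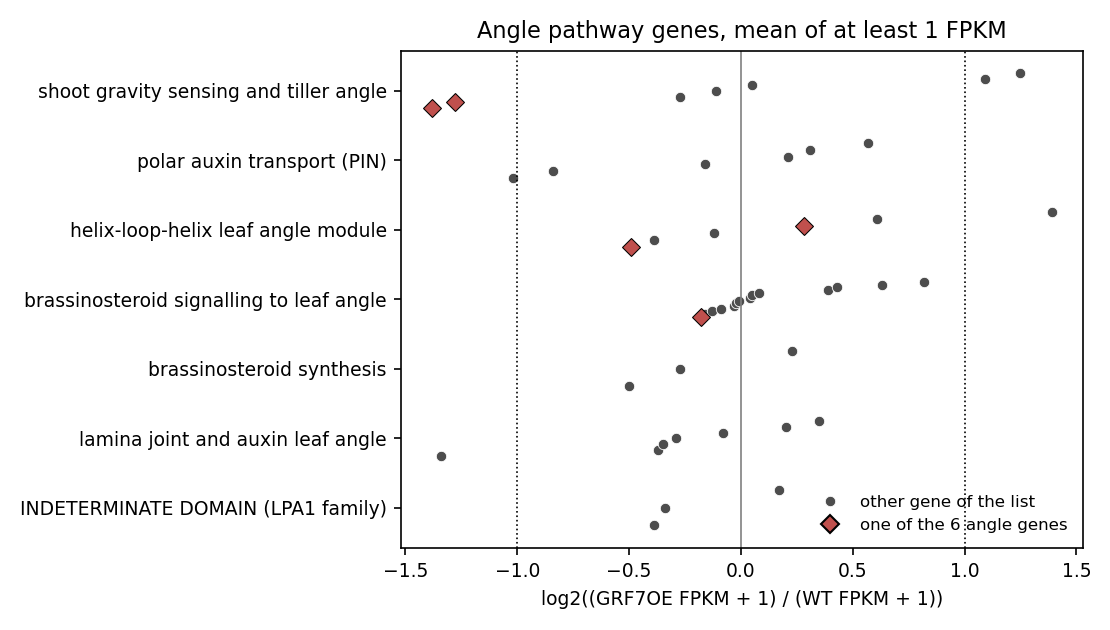
Log2 ratio of GRF7OE to WT, with a pseudocount of 1 FPKM, for the expressed genes of 7 pathway lists (grey circles) and the angle genes among them (red diamonds). Dotted lines mark 2-fold, and LAZY1 and LPA1 lie at the lower end of their list at -1.38 and -1.28.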

How the data were processed

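Total RNA from 2 seedling samples was sequenced. The submitters' processing notes name Bowtie and Cuffdiff; neither a version nor the genome build was given in the sources used here. The authors' deposited table gives FPKM per gene, a normalised count (a signal, the read count scaled per library), a p-value and an FDR. Its log2 ratio, also deposited, was not used. A single read equals 0.963 in the GRF7OE count column and 0.954 in that of WT. Below 10000, 99.3% and 99.2% of values above 0 were whole multiples of that step within 0.05, and dividing by it gave reads. The table is 1 entry per gene, and 23397 of 35677 genes reached a mean of 1 FPKM.

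Ratios were computed as log2((GRF7OE FPKM + 1) / (WT FPKM + 1)) and counted past 2-fold. The pseudocount understates ratios of low genes, so plain FPKM ratios are given with 95% exact (Clopper-Pearson) intervals, and levels with exact Poisson intervals. Where a library had 0 reads no fold is given. The members, lists and rules were chosen with earlier results of these data known. Named genes were the members, OsGRF7, 5 tissue markers, in each list the 4 with the largest absolute ratio, genes described as ILI factors and the 2 nearest genes where the table names them. HOX1, BZR1, IBH1 and WOX11 fall outside that rule and were chosen after their values were seen. Of the listed IDs 2 were dropped because the table names them otherwise. The counting step was tested on simulated reads. Alternatives were pseudocounts of 0.1 and 0.5, other filters and folds, scalings and the count columns. Software was Python 3.11.15 with pandas 2.3.3, SciPy 1.17.1, NumPy 2.4.6 and, for figures, Matplotlib 3.10.9.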

Additional observations from a re-analysis of the deposited data

How the results depend on the processing

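The log2 ratios of the 6 angle genes stayed within their counting intervals under all 5 alternatives run for them (pseudocounts of 0.1 and 0.5, both scalings, count columns). LAZY1 ranged from -1.51 to -1.36, LPA1 from -1.64 to -1.27, ILI1 from -0.63 to -0.48, BU1 from 0.21 to 0.40 and LIC from -0.26 to -0.16, so none of these changed sign, while TAC1 ran from -0.06 to 0.05. The numbers of all genes at 2-fold or more, 293 lower and 758 higher, moved more. They were 512 and 1147 with a pseudocount of 0.1, 165 and 481 with a minimum mean of 5 FPKM, 1121 and 2148 at 1.5-fold, and 53 and 204 at 3-fold. From the normalised count columns 505 were lower and 1109 higher. A smaller pseudocount, a stricter filter and another fold size change these numbers by construction; for the count columns the cause was not tested. Some list medians changed sign between settings, while those of the brassinosteroid synthesis, lamina joint and INDETERMINATE DOMAIN lists stayed below 0. With no filter on low values, the helix-loop-helix median went from 0.24 to -0.12. That of the INDETERMINATE DOMAIN genes went from -0.34 to -0.09 without a change of sign. In that setting the tiller angle and auxin carrier medians came to -0.03 and -0.18. With equal FPKM sums in the libraries, the medians of the tiller angle, auxin carrier and brassinosteroid signalling lists came to -0.03, -0.05 and -0.06. No paired analysis was possible because each group has 1 library. Depth limits ILI1, BU1, TAC1 and ILI7 most, and the absence of replicates limits every comparison.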
